A study of Mus musculus with 12 samples.

Results

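The respiratory chain genes were taken as the nuclear genes whose symbol in the array annotation starts with Nduf, Uqcr, Sdh followed by a to d, Cox4 to Cox8, or Atp5, with the brightest probe set standing for each symbol. This gave 93 of the 19938 genes of the arrays. Cox7c, Ndufb4, Ndufb4b and Ndufs5-ps also fit the rule but stand only on probe sets that name several genes, so they are not among the 93. Complex I had 41 of them, complex II 8, complex III 8, complex IV 19 and complex V 17. After a filter that kept genes above the median signal of the array (6.31 on the log2 scale) on at least 1 array, 91 of the 93 remained among 13044 genes. The complex IV isoforms Cox8b and Cox8c, known from muscle and testis, did not pass it and lay between 4.94 and 5.67 on every array.

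The series followed the conversion of mouse embryonic fibroblasts (MEF) into pluripotent cells by doxycycline (DOX), which switches on transgenes for Oct4, Sox2, Klf4 and Myc (OSKM), and compared genotypes of Mbd3, which belongs to the chromatin-remodelling complex NuRD. There were 12 arrays, each of a different genotype and stage. In the Mbd3+/+ (WT) series, MEF, MEF after 4, 8 and 11 days of DOX, and induced pluripotent stem cells (iPSC) carried the OSKM transgenes, while the label of the embryonic stem cells (ESC, the V6.5 line) names none. Mbd3flox/- cells, with 1 floxed and 1 deleted copy, carried the same transgenes and gave MEF, days 4 and 8 of DOX, and iPSC. Mbd3-/- cells gave MEF and ESC, and their labels name no transgene. This makes 3 MEF arrays, 5 DOX arrays and 4 pluripotent arrays. According to the labels all cells grew in ESC medium with 2i and LIF over irradiated fibroblast feeders, whose RNA may be part of the signal. Of these arrays, WT day 8 and WT ESC are marked in the labels as taken from an older series, and the source name of the WT day 8 array says 4 days while its title and stage say 8.

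The respiratory chain of the inner mitochondrial membrane passes electrons from NADH through complex I, or from succinate through complex II, to complex III, cytochrome c and complex IV, where oxygen is reduced. Complexes I, III and IV pump protons, and complex V, the ATP synthase, uses the return of the protons to make ATP. Most subunits are encoded in the nucleus and a few of complexes I, III, IV and V in mitochondrial DNA. Fibroblasts are known to rely on respiration more than pluripotent cells, which use glycolysis heavily. Several complex IV subunits exist as a widely expressed form and as isoforms of particular tissues.

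Nuclear respiratory factor 1 (NRF1), GA-binding protein of the ETS family, YY1 and the estrogen-related receptors are known to act at promoters of respiratory chain genes, so the promoter windows were searched for their motifs on both strands. A window held 250 bases before and 50 after the transcription start listed by RefSeq on GRCm38.p6, and 77 of the 93 genes had one. The NRF1 motif, GCGCA and GCGC with any base between them, stood in 20 of the 77 (26.0%), against 11.0% of the 10340 genes above the filter that had a window and 7.17% of 17492 protein-coding genes. The ETS motif CCGGAAG stood in 21 (27.3%), against 18.7% of genes above the filter, and the YY1 motif AAGATGGCG in 7 (9.09%), against 3.37%. The estrogen-related receptor motif TCAAGGTCA stood in 2 of the 77 (2.6%), against 0.329% of genes above the filter. None of the motifs stood in the windows of the 5 complex IV isoforms that had one. The same held for the widely expressed complex IV subunits Cox5a, Cox5b, Cox7a2, Cox7b and Ndufa4, so it was not particular to isoforms. The lines here show, in capitals, an NRF1 match on either strand with 15 bases on each side in 6 genes of complexes I, II, IV and V, because this motif recurs across complexes.
Ndufaf4, chr4:24897955-24897994, plus strand: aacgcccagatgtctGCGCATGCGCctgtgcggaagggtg
Ndufa8, chr2:36049344-36049383, minus strand: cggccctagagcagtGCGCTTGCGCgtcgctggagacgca
Sdha, chr13:74350271-74350310, minus strand: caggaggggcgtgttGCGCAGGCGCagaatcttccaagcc
Sdhd, chr9:50603904-50603943, minus strand: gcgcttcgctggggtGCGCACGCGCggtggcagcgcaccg
Cox6a1, chr5:115349051-115349090, minus strand: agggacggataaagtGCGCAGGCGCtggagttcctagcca
Atp5g2, chr15:102671065-102671104, minus strand: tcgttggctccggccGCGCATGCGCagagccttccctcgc
The match centres lie 108, 25, 50, 74, 112 and 37 bases before the start, in this order of genes. In the 200 bases before the start, Cox5a, Uqcr10 and Uqcrc1 hold none of the 4 motifs. The full window of Uqcrc1, however, holds the NRF1 motif. The isoforms Cox7a1 and Cox6b2, the members with the largest rises in pluripotent cells, hold none in those 200 bases either.
Cox7a1, chr7:30183971-30184170, plus strand: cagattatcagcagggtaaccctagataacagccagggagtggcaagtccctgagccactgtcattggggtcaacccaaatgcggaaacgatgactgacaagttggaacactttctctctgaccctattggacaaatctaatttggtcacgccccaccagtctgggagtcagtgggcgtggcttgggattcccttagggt
Cox6b2, chr7:4753095-4753294, minus strand: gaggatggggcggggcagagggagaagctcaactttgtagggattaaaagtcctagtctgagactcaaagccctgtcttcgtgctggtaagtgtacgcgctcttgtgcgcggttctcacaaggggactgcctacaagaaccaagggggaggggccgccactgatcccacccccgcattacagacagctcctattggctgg
A match is a run of letters and not a measured binding site. Among the members that rose in pluripotent cells, 9 of 33 with a window held the NRF1 motif (27.3%), and among the other members above the filter 11 of 43 did (25.6%). The ETS motif stood in 4 of the 33 (12.1%) and in 17 of the 43 (39.5%), and the YY1 motif in 3 (9.09%) and 4 (9.3%). These shares are a description and were not tested.

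The labelled cells were checked by marker lists, given as the median log2 signal of a list on an array. The 10 fibroblast markers stood at 11.89 to 12.21 on the MEF arrays and at 6.70 to 9.41 on the pluripotent ones. All 9 pluripotency markers were above the array median on the 4 pluripotent arrays, on WT day 11 and on flox/- day 8, against 1 on each MEF array, 3 on WT day 4, 4 on WT day 8 and 6 on flox/- day 4. The WT ESC array stood apart in 5 smooth muscle markers (11.21, against 6.20 to 6.73 on the other pluripotent arrays and 11.66 to 12.23 on the MEF arrays). Mbd3 signal was 6.73 in -/- ESC and 8.15 in -/- MEF, both below the range of 8.73 to 9.67 on the other 10 arrays. In such bulk samples fewer cells of a type and less RNA per cell cannot be told apart.

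Respiratory chain genes were on balance lower in MEF than in the other cells, and the largest exceptions were isoforms of complex IV. The deviation of each gene from its own mean over the 12 arrays was taken, and its median over the 91 genes was -0.26 in WT MEF, -0.22 in flox/- MEF and -0.18 in -/- MEF. It was 0.04 on WT day 4, 0.03 on WT day 8 and 0.03 on WT day 11, and 0.22 on flox/- day 4 and -0.09 on flox/- day 8. In pluripotent cells it was 0.05 in WT iPSC, 0.03 in flox/- iPSC, 0.20 in WT ESC and 0.03 in -/- ESC. The 3 MEF arrays thus lay below all 9 others, with flox/- day 8 the closest to them. The median of all 13044 genes moved far less, from -0.08 in WT MEF to 0.04 on flox/- day 4.

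**Figure D1:**
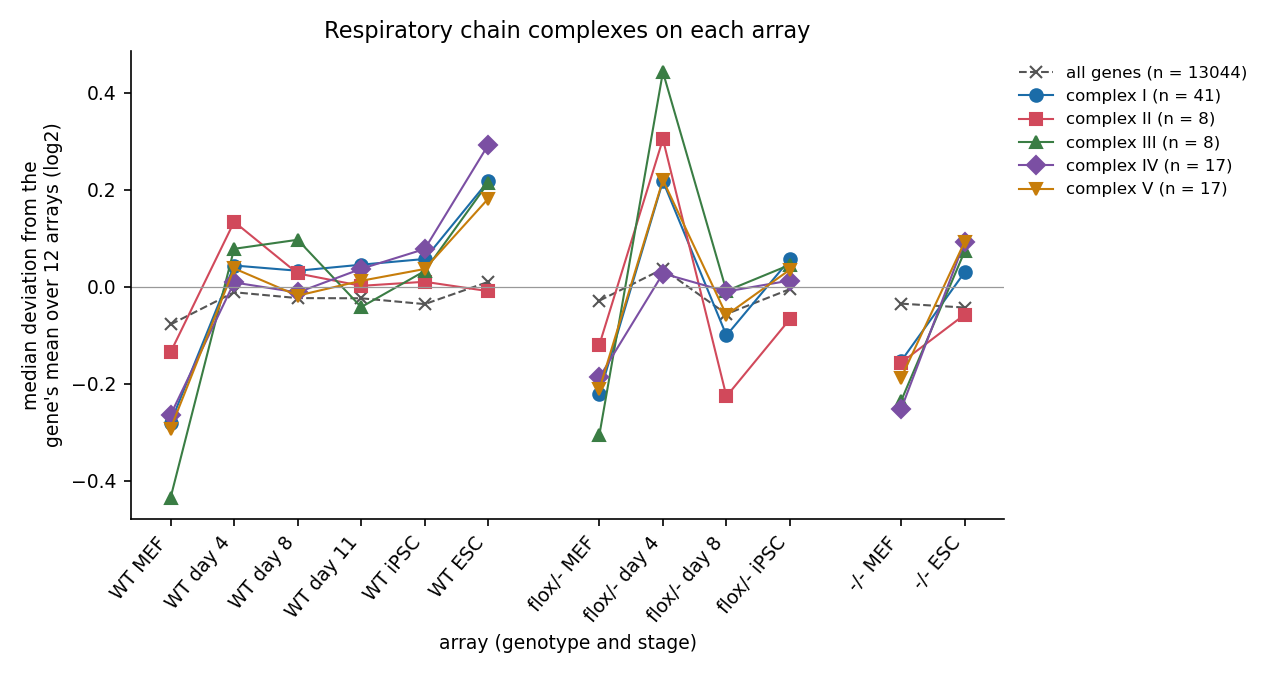
Median deviation of the genes of each complex from their own mean over 12 arrays (vertical axis, log2) on each array (horizontal axis, by genotype and stage), with all genes as a dashed line. All complexes sit below 0 on the 3 MEF arrays. WT ESC is highest for complexes I and IV, and flox/- day 4 for complexes II, III and V.

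The complexes followed this course to different degrees. Complex III spanned the most between arrays, from -0.43 in WT MEF to 0.44 on flox/- day 4, and complex IV went from -0.26 in WT MEF to 0.29 in WT ESC. Complex I went from -0.28 in WT MEF to 0.22 in WT ESC. Complex V went from -0.29 in WT MEF to 0.22 on flox/- day 4. Complex II as a set did not share the course of the others, since its lowest array was flox/- day 8 (-0.23) and its pluripotent arrays lay between -0.07 and 0.01. It holds 4 subunits and 4 assembly factors, while complexes III to V hold no assembly factors here. The subunits alone stood at -0.20 to -0.13 on the MEF arrays and at 0.12 in both WT iPSC and WT ESC. They stood at -0.07 in flox/- iPSC, -0.16 in -/- ESC and -0.24 on flox/- day 8. The WT ESC array, highest for complexes I and IV, is the one with MEF-like smooth muscle markers. It was also taken from an older series, and its label names another line, V6.5, and no transgene. The part of each of these in its values was not tested. Of single genes, 31 of 91 had their highest signal in WT ESC (34.1%, against 8.25% of all genes) and 26 on flox/- day 4 (28.6%, against 11.9%), while 33 had their lowest in WT MEF (36.3%, against 15.7%).

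Pluripotent cells, on 2 iPSC and 2 ESC arrays, were compared with MEF to ask how the chain differs between these cell states. A gene was called at a Benjamini-Hochberg adjusted p under 0.05 in limma over all genes. Of the 91 genes, 38 rose (41.8%) and 3 fell (3.3%), against 30.1% higher and 29.9% lower among all genes. Their median difference was 0.32 in log2 units, with quartiles of 0.15 and 0.46, against 0.03 with quartiles of -0.68 and 0.62 for all genes. The sign was positive in 78 of 91. The pluripotent arrays lay wholly above the MEF arrays for 50 genes and wholly below for 4, where all genes gave 32.3% and 30.8%. On each of the 4 pluripotent arrays 60 of the 91 genes were above the MEF array of their genotype (65.9%, against 37.5% of all genes). Arrays of different genotype stood here as replicates of a cell state, so the p-values measure the spread between such arrays. Without the flox/- MEF array the number of members called dropped from 41 to 21, with the share of all genes in that setting not given here.

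**Figure D2:**
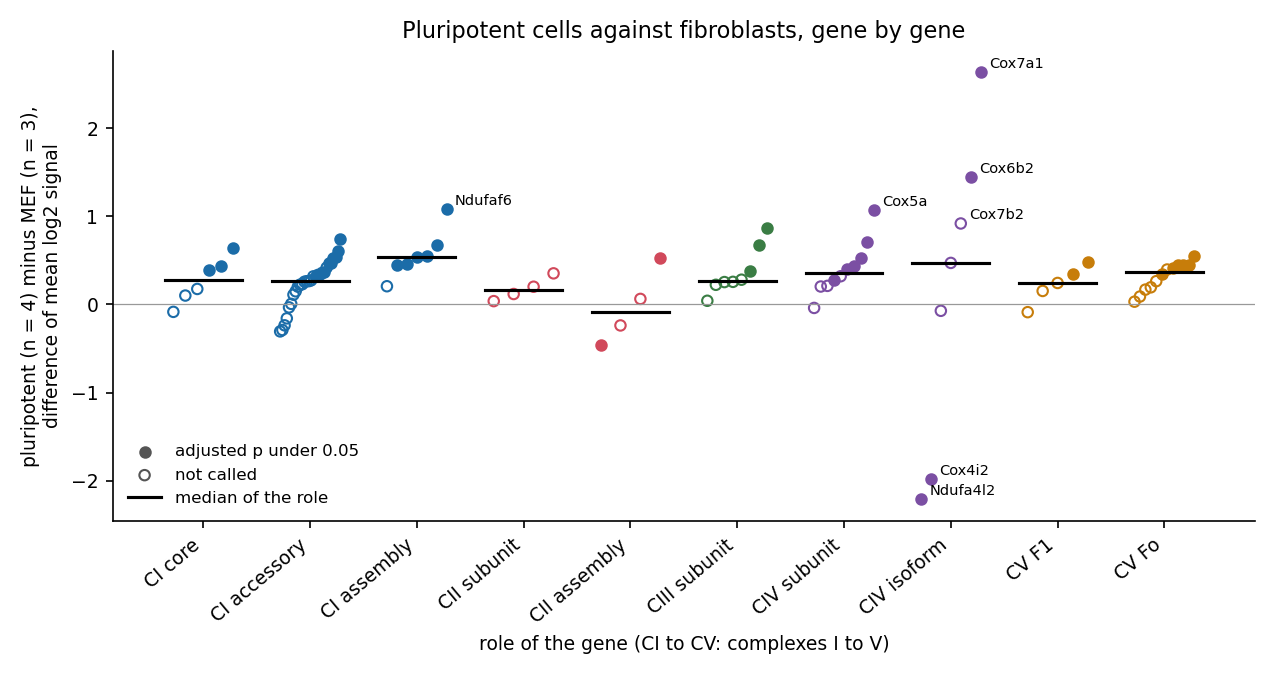
Difference of mean log2 signal between the 4 pluripotent and 3 MEF arrays (vertical axis) for each of 91 genes, grouped by role (horizontal axis). Filled points have an adjusted p under 0.05, open points do not, and bars are medians of a role. Most roles lie slightly above 0, and the complex IV isoforms spread from -2.21 to 2.64.

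In complex I, 18 of 41 genes rose (43.9%, beside the 30.1% of all genes) and none was called lower, where all genes gave 29.9%. Of the 6 measured core subunits, which carry the flavin and iron-sulfur centres, 3 rose (50%). Ndufv1, the subunit that binds the flavin and oxidises NADH, read 9.93, 10.09 and 10.11 in WT, flox/- and -/- MEF and 10.70, 10.66, 10.59 and 10.77 in WT iPSC, flox/- iPSC, WT ESC and -/- ESC. The groups did not overlap, and the difference was 0.64 ± 0.10 (SE of the limma fit, adjusted p = 0.0015). Ndufs1, which holds iron-sulfur clusters, rose by 0.44 ± 0.12 (adjusted p = 0.0154) and Ndufv2 by 0.39 ± 0.10 (adjusted p = 0.012). The core subunits Ndufs3, Ndufs7 and Ndufs8 differed by 0.18, 0.10 and -0.08 and did not pass.

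Of the 28 accessory subunits of complex I, which surround the core, 9 rose, a share (32.1%) near the 30.1% of all genes, and 0 fell. Ndufs6, a zinc-binding subunit placed late in assembly, read 8.58, 8.98 and 9.02 in WT, flox/- and -/- MEF and 9.54, 9.70, 9.56 and 9.60 in WT iPSC, flox/- iPSC, WT ESC and -/- ESC. Its difference was 0.74 ± 0.14 (adjusted p = 0.00252), with no overlap of the groups. Ndufb5, of the membrane arm, rose by 0.61 ± 0.12 (adjusted p = 0.00296). Accessory subunits at the other end were Ndufv3, at -0.31, and Ndufa2, at -0.29, and neither passed.

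Of the 7 assembly factors of complex I 6 rose (85.7%, beside 30.1% of all genes), with a median difference of 0.54. The median was 0.28 for the core and 0.27 for the accessory subunits. Ndufaf6, an assembly factor of the early steps, read 6.10, 5.98 and 6.30 in WT, flox/- and -/- MEF and 7.34, 7.10, 7.20 and 7.19 in WT iPSC, flox/- iPSC, WT ESC and -/- ESC. The groups did not overlap, with a difference of 1.08 ± 0.12 (adjusted p = 0.000267). Ndufaf2, Ndufaf7, Ndufaf1 and Ndufaf5 rose by 0.55, 0.54, 0.45 and 0.45. Ndufaf4 rose by 0.68 ± 0.25 (adjusted p = 0.0473), a call lost in 10 of 15 other settings, in which its adjusted p reached 0.14. Ndufaf3 differed by 0.21 and did not pass.

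Complex II, which also serves the citric acid cycle and has no mitochondrially encoded subunit, had the lowest median difference, 0.09. The median was 0.16 for its 4 subunits and -0.09 for its 4 assembly factors. The flavin subunit Sdha differed by 0.20, the iron-sulfur subunit Sdhb by 0.12, and the membrane anchors Sdhc and Sdhd by 0.04 and 0.35, and 0 of 4 subunits were called at the adjusted threshold, with 1 under 0.05 before adjustment. Its assembly factors went apart. Sdhaf3 rose by 0.53 ± 0.16 (adjusted p = 0.024). Sdhaf4, a chaperone of the flavin subunit, read 6.65, 6.89 and 7.07 in WT, flox/- and -/- MEF and 6.41, 6.36, 6.29 and 6.58 in WT iPSC, flox/- iPSC, WT ESC and -/- ESC. It fell by 0.46 on the log2 scale (SE 0.14, adjusted p = 0.0222), but its other, dimmer probe set gave 0.01, and the adjusted p was 0.0704 without flox/- MEF, 0.0551 without flox/- iPSC and 0.079 without -/- MEF.

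In complex III all 8 subunits were higher by sign and 3 rose (37.5%, beside 30.1% of all genes). Uqcr10, a small subunit, read 9.14, 9.32 and 9.46 in WT, flox/- and -/- MEF and 10.13, 10.17, 10.40 and 9.99 in WT iPSC, flox/- iPSC, WT ESC and -/- ESC, a rise of 0.86 ± 0.14 (adjusted p = 0.00127). Uqcrc1, one of the core proteins, rose by 0.67 ± 0.10 (adjusted p = 0.001). The Rieske iron-sulfur protein Uqcrfs1 rose by 0.38 ± 0.10 (adjusted p = 0.0105). Uqcrh, the hinge protein, was at 0.04.

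In complex IV, 6 of the 10 widely expressed subunits rose (60%, beside 30.1% of all genes). Cox5a, a matrix-side subunit, read 9.62, 9.71 and 9.96 in WT, flox/- and -/- MEF and 10.84, 10.74, 11.06 and 10.71 in WT iPSC, flox/- iPSC, WT ESC and -/- ESC. The groups were apart, with a difference of 1.08 ± 0.14 (adjusted p = 0.000468). Ndufa4, now counted with complex IV, rose by 0.71 ± 0.17 (adjusted p = 0.00938), Cox7a2 by 0.53, Cox4i1 by 0.44, Cox5b by 0.40 and Cox7b by 0.28. Cox8a, Cox6a1, Cox6c and Cox6b1 differed by 0.32, 0.21, 0.20 and -0.04 and did not pass.

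The largest differences of all 91 genes, in both directions, were isoforms of complex IV. Cox7a1, known as the heart and skeletal muscle isoform of the subunit whose general form is Cox7a2, read 7.11, 6.99 and 6.81 in WT, flox/- and -/- MEF. It read 9.70 in WT iPSC, 10.03 in flox/- iPSC, 9.45 in WT ESC and 9.25 in -/- ESC. The rise of 2.64 ± 0.20 (adjusted p = 5.11e-05), or 6.22-fold, was the largest among the 91 genes. Of 13 muscle markers, 2 to 4 were above the array median on any array, and the list medians were 5.64 to 5.81 on the MEF arrays and 5.65 to 5.94 on the pluripotent ones. Of the 5 that passed the filter 0 rose, Acta1 fell by 2.22 and Tnnt2 by 0.90, while Des (-1.55), Ckm (-0.02) and Actn2 (0.87) did not pass the test. Actn2 read 8.05 in -/- ESC and 6.79 in flox/- iPSC, against 5.68 to 5.87 on the MEF arrays. The part of such markers in the Cox7a1 values was not tested. Cox6b2, known as a testis isoform, read 9.10, 9.54 and 8.73 in WT, flox/- and -/- MEF and 10.48, 10.62, 10.71 and 10.44 in WT iPSC, flox/- iPSC, WT ESC and -/- ESC, a rise of 1.44 ± 0.19 (adjusted p = 0.000575). Its counterpart Cox6b1 is the subunit at -0.04. The 6 germ cell markers had list medians of 4.44 to 4.77 on the MEF arrays and 5.80 to 7.35 on the pluripotent ones, and their part in the Cox6b2 values was not tested.

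Cox4i2 and Ndufa4l2 were the isoforms that fell. Cox4i2, known from lung and oxygen-sensing cells as the alternative to Cox4i1, read 8.81, 8.96 and 9.01 in WT, flox/- and -/- MEF and 6.89, 6.74, 7.09 and 7.06 in WT iPSC, flox/- iPSC, WT ESC and -/- ESC. The arrays of the groups lay far apart, and the gene fell by 1.98 on the log2 scale (SE 0.13, adjusted p = 2.96e-05). The highest of the 4 pluripotent values was that of WT ESC, whose smooth muscle markers were MEF-like, and their part in the Cox4i2 values was not tested. Ndufa4l2, the hypoxia-induced relative of Ndufa4, read 10.42, 8.99 and 7.98 in WT, flox/- and -/- MEF and 7.82, 6.76, 6.42 and 6.67 in WT iPSC, flox/- iPSC, WT ESC and -/- ESC. It fell by 2.21 on the log2 scale (SE 0.58, adjusted p = 0.0124), with more spread among MEF than any other member named here. The 9 macrophage markers had medians in the same order on the MEF arrays (10.38 in WT, 9.17 in flox/- and 7.71 in -/-) and 5.11 to 6.31 on the pluripotent ones, and their part in the Ndufa4l2 values was not tested.

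**Figure D3:**
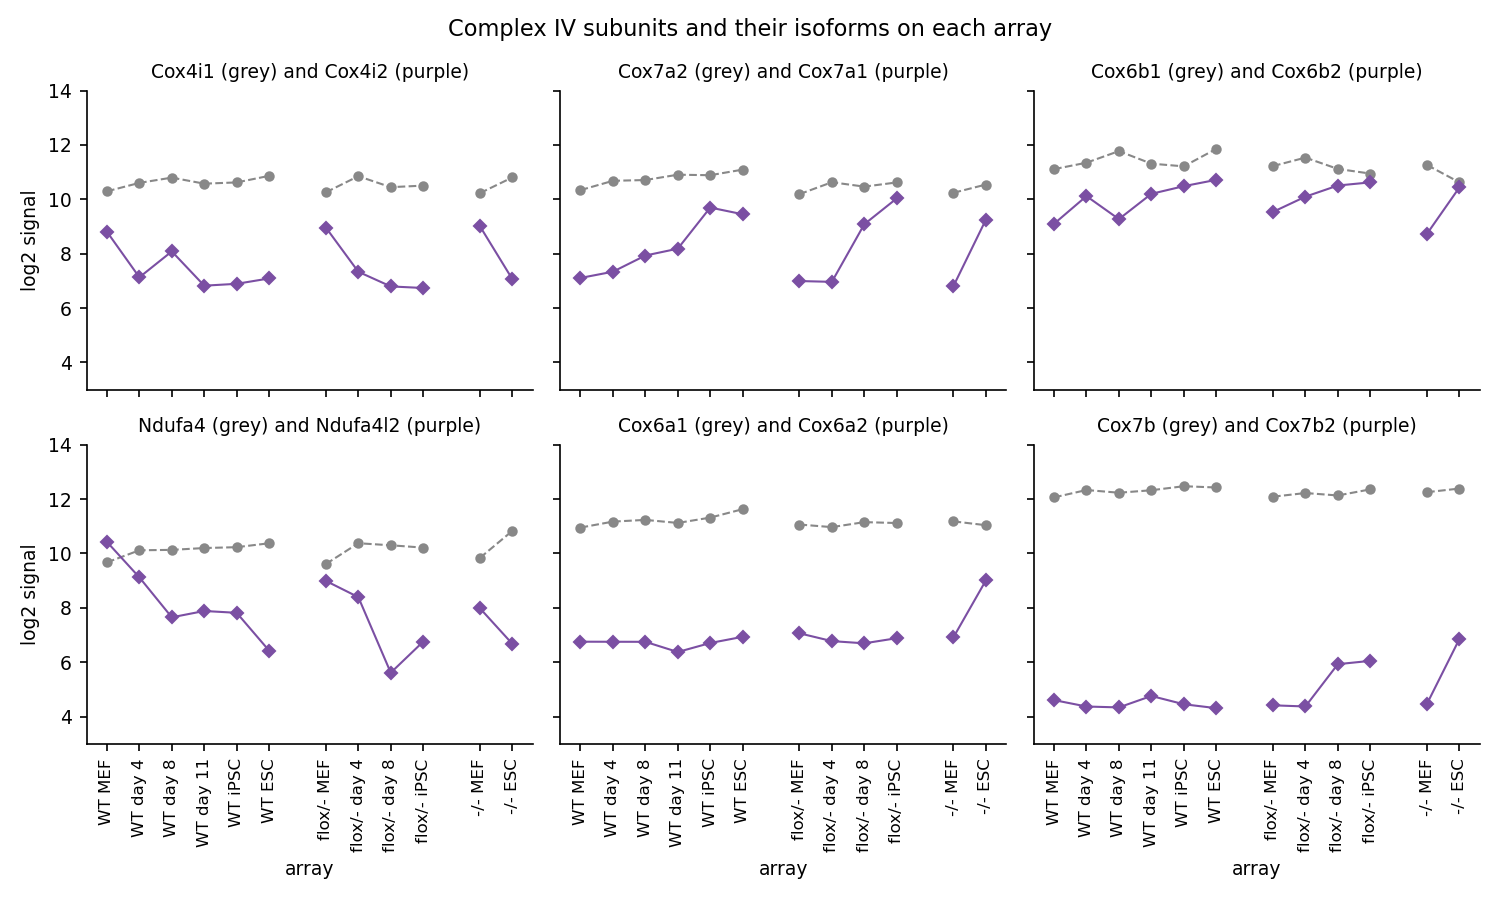
Log2 signal (vertical axis) of 6 widely expressed complex IV subunits (grey, dashed) and their isoforms (purple) on each array (horizontal axis). Heights of different probe sets are not comparable, only their course: Cox4i2 and Ndufa4l2 go down from MEF to pluripotent cells, and Cox7a1 and Cox6b2 go up.

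The remaining isoforms were high on few arrays. Cox6a2, another heart and skeletal muscle form, read 9.01 in -/- ESC and 6.37 to 7.06 on the other 11 arrays. Cox7b2, known from testis, read 6.86 in -/- ESC, 6.05 in flox/- iPSC and 5.93 on flox/- day 8, and 4.31 to 4.76 on the other 9 arrays, so only the -/- ESC value was above the array median. Cox7a2l, which joins complexes III and IV in supercomplexes, differed by -0.07 and did not pass.

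In complex V, 8 of 17 genes rose (47.1%, beside 30.1% of all genes), 2 of 5 in the F1 head and 6 of 12 in the membrane part and peripheral stalk. Atp5a1 and Atp5c1, subunits alpha and gamma of the head, rose by 0.49 ± 0.10 (adjusted p = 0.00443) and 0.34 ± 0.10 (adjusted p = 0.0169). The catalytic subunit Atp5b differed by 0.24 (adjusted p = 0.0645). Of the genes for the rotating c-ring, Atp5g1 and Atp5g3 rose by 0.55 and 0.44, while Atp5g2 differed by 0.26 and did not pass. Both Atp5o and Atp5pb, of the peripheral stalk, rose, by 0.44 and 0.45.

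Cells under DOX were compared with MEF as 1 set, which was not limited to cells before pluripotency. The pluripotency markers stood at 11.39 on WT day 11 and 12.02 on flox/- day 8. On the pluripotent arrays they stood at 11.42 to 12.15. The median difference, 0.28, was close to that of pluripotent cells, against 0.06 for all genes, and 79 of 91 genes were positive. Both comparisons share the MEF arrays. In all 5 steps from the MEF of the same genotype, 48 of the 91 genes were higher (52.7%, against 24.4% of all genes). Few genes passed the test: 3 rose (3.3%) and 1 fell (1.1%), against 5.88% and 7.67% of all genes. The DOX arrays lay wholly above the MEF arrays for 32 genes and wholly below for 1, where all genes gave 15.3% and 15.2%. The number of members called was unsteady, and is given here without the share of all genes in the same settings. It was 0 without WT MEF, 0 without flox/- MEF, 0 without -/- MEF, 1 without WT day 11, 1 without flox/- day 4 and 9 without WT day 8, and 0 with genotype as a term.

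The 3 genes that rose under DOX were Ndufaf6, Cox5a and Ndufa4. Ndufaf6 read 7.02, 6.52 and 7.36 on WT days 4, 8 and 11 and 7.66 and 7.50 on flox/- days 4 and 8, all above the MEF values, with a difference of 1.08 ± 0.27 (adjusted p = 0.0372). Cox5a read 10.15, 10.64 and 10.47 on WT days 4, 8 and 11 and 10.45 and 10.71 on flox/- days 4 and 8, a rise of 0.72 ± 0.17 (adjusted p = 0.0347). Ndufa4 rose by 0.52 ± 0.13 (adjusted p = 0.0418). Cox4i2, the gene that fell, read 7.13, 8.08 and 6.82 on WT days 4, 8 and 11 and 7.33 and 6.79 on flox/- days 4 and 8. WT day 8 was the highest of the 5, yet under every MEF array, and the gene fell by 1.69 on the log2 scale (SE 0.30, adjusted p = 0.0159). With genotype as a term the adjusted p was 0.0766 for Ndufaf6, 0.0749 for Cox5a, 0.0907 for Ndufa4 and 0.0697 for Cox4i2.

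Cox7a1 took another course. It read 7.34, 7.93 and 8.18 on WT days 4, 8 and 11, 6.96 on flox/- day 4 and 9.08 on flox/- day 8, so that flox/- day 4 lay within the MEF range and flox/- day 8 was nearest to the pluripotent cells. Over the 5 arrays the difference from MEF was 0.93 ± 0.44 (adjusted p = 0.173). The pluripotency markers, at 12.02 on flox/- day 8, 11.39 on WT day 11 and 5.59 to 7.10 on the other DOX arrays, were also high on flox/- day 8. Ndufa4l2 read 9.12, 7.65 and 7.88 on WT days 4, 8 and 11 and 8.39 and 5.61 on flox/- days 4 and 8, and its difference of -1.40 had an adjusted p of 0.255.

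DOX cells were also set against pluripotent cells. None of the 91 genes was called in limma, with 5 under 0.05 before adjustment, against 0.00767% called, 1 gene, among all. The median difference was -0.04, against 0.02 for all genes. Cox7a1 had the largest size, at -1.71 ± 0.40 (adjusted p = 0.222). Without flox/- day 8 the number of members called was 1, with the share of all genes in that setting not given here.

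Each DOX array was then set against the MEF array of its genotype, where 1 array on each side allows no test and genes past 1.5-fold were counted. WT day 4 had 10 genes higher and 2 lower with a median of 0.29, where 13.8% and 14.8% of all genes were past the threshold. WT day 8 had 13 higher and 4 lower with a median of 0.25, against 22.2% and 20.9%. WT day 11 had 8 higher and 2 lower with a median of 0.30, against 22.2% and 21.8%. In WT cells the median on day 4 was thus as high as on day 11, with 0.25 on the day between them.

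The flox/- cells differed between their days. On day 4, 34 genes were higher and 2 lower with a median of 0.39, against 25% and 23.1% of all genes. Complex III led with a median of 0.83 and 5 of 8 genes past 1.5-fold, followed by complex II at 0.47 and complex I at 0.46. On day 8, 10 were higher and 3 lower with a median of 0.15, against 26.4% and 29.8%. From day 4 to day 8 in flox/- cells, 16 genes were lower (17.6%) and 2 higher (2.2%) past 1.5-fold, against 23% and 14.4% of all genes, with a median of -0.31 against -0.12 for all genes. Complex III genes went down most (-0.59), then complex II (-0.50), while complex IV moved by -0.09. Uqcrc1 read 10.67 in flox/- MEF, 11.94 on day 4 and 11.31 on day 8, and Uqcrfs1 read 7.92, 9.15 and 8.36. Day 4 was thus the high point for both genes among the 4 flox/- arrays.

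**Figure D4:**
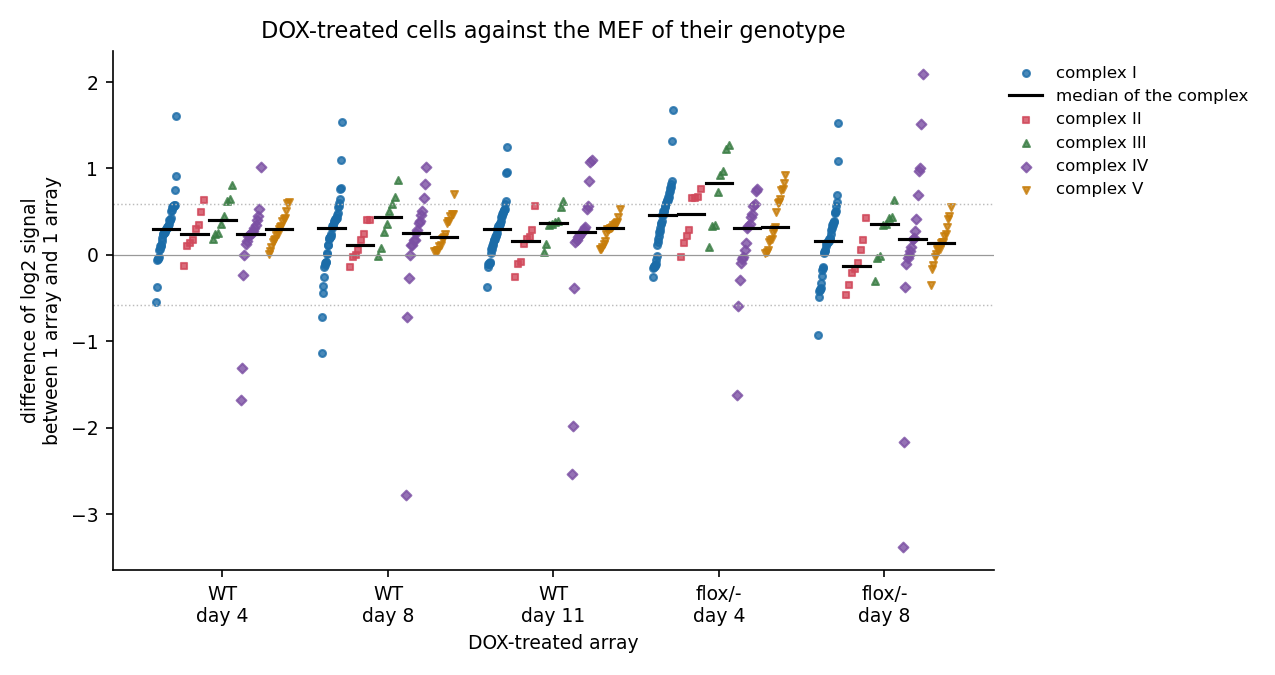
Difference of log2 signal between each DOX array and the MEF array of its genotype (vertical axis) for 91 genes, by array (horizontal axis) and complex, with medians as bars and dotted lines at 1.5-fold. Medians lie above 0 except complex II on flox/- day 8, and the lowest points, in complex IV, are Cox4i2 and Ndufa4l2.

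For flox/- against WT, the fit used the 8 arrays of MEF, day 4, day 8 and iPSC, matched by stage through a block. In limma 0 of 91 genes were called, with 4 under 0.05 before adjustment, and 0% of all genes were called, with 852 under 0.05 before adjustment. The median was 0.05, against 0.02 for all genes. By stage the genes past 1.5-fold were few in MEF (0 higher and 2 lower, where all genes gave 6.29% and 6.06%) and in iPSC (1 and 3, against 5.27% and 7.72%). On day 4 they were 5 and 2, against 14.7% and 14.7%. On day 8 they were 9 and 11, against 22.5% and 27.9%. The WT array of day 8 comes from an older series and its source name says 4 days, so genotype and series cannot be told apart there. The medians by stage were 0.04 in MEF, 0.16 on day 4, -0.08 on day 8 and 0.00 in iPSC, with all genes at 0.03, 0.08, -0.06 and 0.00.

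Genes with the same sign at all 4 stages were 13 higher and 7 lower in flox/- cells (14.3% and 7.69%, against 10.6% and 8.7% of all genes). The higher share thus lay near that of all genes. The higher ones of complex I were Ndufa5, Ndufa6, Ndufa9, Ndufb5, Ndufs1, Ndufs6, Ndufs7 and Ndufs8. Those of the other complexes were Uqcr10, Cox7a2l, Atp5h, Atp5mpl and Atp5o. Some of the differences were close to 0, such as Ndufs7 in MEF (0.01) and Ndufs6 on day 8 (0.02). Ndufa4l2 had the largest size, at -1.31 ± 0.25 (adjusted p = 0.693), and stood at -1.43, -0.73, -2.04 and -1.06 in MEF, day 4, day 8 and iPSC. The macrophage markers were also lower in flox/- than in WT cells in MEF, on day 4 (6.19 against 8.57) and in iPSC (5.11 against 6.31), but not on day 8 (5.18 against 5.10). Cox7b2, at 0.75 ± 0.40 (adjusted p = 0.693), and Cox6b2, at 0.45 ± 0.25 (adjusted p = 0.693), were the largest in the other direction, before Ndufaf5 (0.39), Ndufaf6 (0.31) and Ndufs6 (0.31). Cox7b2 lay under the array median (6.31) on all 8 arrays of this fit, so its difference is one of dim signals. Ndufa12 and Ndufb8, accessory subunits of complex I, stood at -0.46 and -0.30. Across MEF, day 4, day 8 and iPSC, Ndufaf5 stood at 0.01, 0.51, 1.19 and -0.14, and Ndufaf6 at -0.12, 0.64, 0.98 and -0.25. In the same order Cox6b2 stood at 0.44, -0.02, 1.24 and 0.14, and Ndufb8 at -0.12, 0.08, -1.09 and -0.06. Day 8 held the largest size for each of these. The pluripotency markers differed there as well (12.02 in flox/- and 5.59 in WT cells). The WT day 8 array also comes from an older series, and its source name says 4 days. The part of each of these in the day 8 differences was not tested. Over 15 alternatives the fitted difference ranged from 0.13 to 0.57 for Ndufaf5 and from 0.09 to 0.50 for Ndufaf6. It ranged from 0.19 to 0.60 for Cox6b2 and from -0.43 to -0.04 for Ndufb8. None of the genes named here passed.

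**Figure D5:**
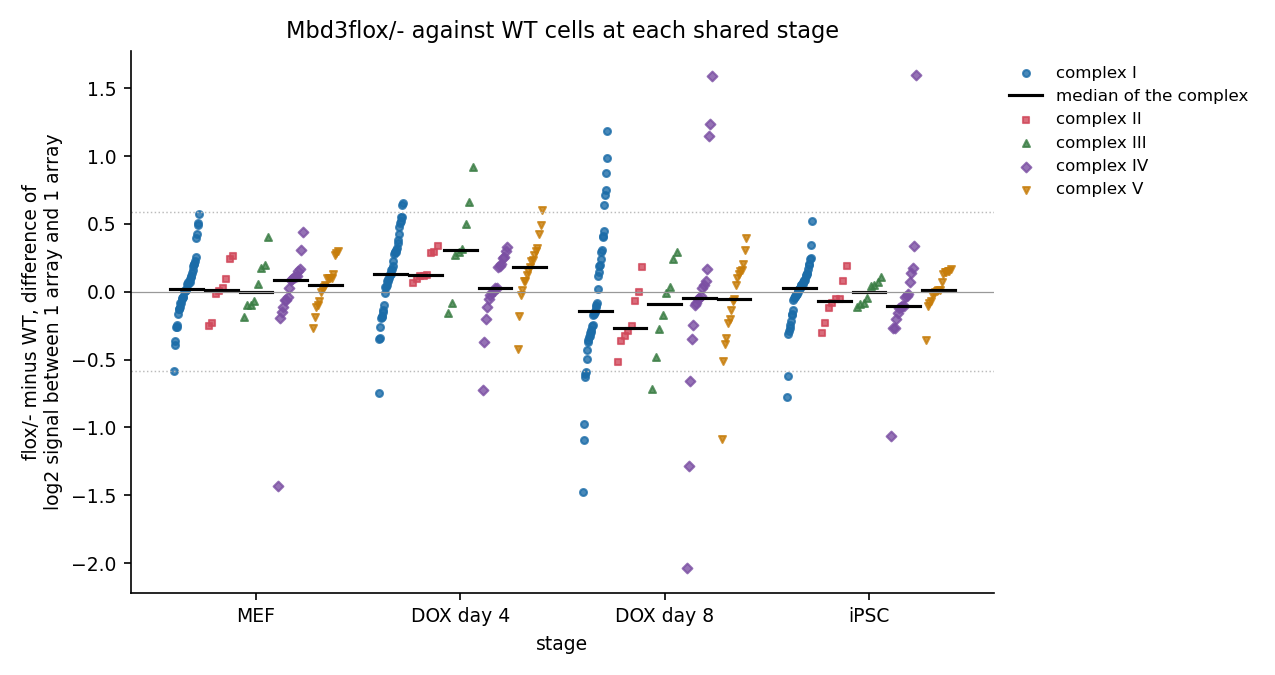
Difference of log2 signal between the flox/- and the WT array of each shared stage (vertical axis; 1 array each) for 91 genes, by stage (horizontal axis) and complex, with medians as bars and dotted lines at 1.5-fold. Points lie close to 0 in MEF and iPSC and spread most on day 8.

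For -/- against WT, the fit held the 7 arrays of MEF and pluripotent cells and had terms for state and genotype. In limma 0 of 91 genes were called, with 5 under 0.05 before adjustment, and 0% of all genes were called, with 1243 under 0.05 before adjustment. The median was 0.01, against -0.01 for all genes. Cox7b2, at 1.40 ± 0.59 (adjusted p = 0.524), and Cox6a2, at 1.27 ± 0.52 (adjusted p = 0.523), were the largest positive differences, with the -/- ESC array alone high. Cox7b2 had passed the filter on dim genes only through that array. Ndufaf4 stood at 0.73 ± 0.15 (adjusted p = 0.476) and was higher in -/- than in WT cells both in MEF (8.37 against 7.43) and in ESC (8.97 against 8.41). Ndufa9 and Ndufb2, accessory subunits of complex I, stood at 0.48 and 0.42. At the other end Ndufa4l2 stood at -1.29 ± 0.59 (adjusted p = 0.539), Ndufaf3 at -0.68 and Cox6b1 at -0.47, and none of these passed.

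Ndufs5 and Atp5e were low in both genotypes with altered Mbd3. Ndufs5, an accessory subunit of complex I, read 7.75 to 8.59 on the 6 WT arrays, with a median of 8.17, and 7.12 to 7.55 on the 6 flox/- and -/- arrays, with a median of 7.37. Atp5e, the epsilon subunit of the F1 stalk, read 8.76 to 9.24 with a median of 8.96 on the WT arrays and 8.15 to 8.53 with a median of 8.46 on the others. Neither overlapped between WT and the other genotypes, across stages. These are 2 of 91 genes with all WT arrays above the others (2.2%), where all genes gave 0.146%, and 0 of 91 had all WT arrays below, where all genes gave 0.192%. The count was made after their values were seen. In the fits Ndufs5 stood at -0.79 ± 0.23 in flox/- (adjusted p = 0.693) and -0.74 ± 0.15 in -/- cells (adjusted p = 0.476), and Atp5e at -0.53 ± 0.20 (adjusted p = 0.693) and -0.42 ± 0.15 (adjusted p = 0.518). A probe set shared by Ndufs5 and its copy Ndufs5-ps was left out, and signal from near-identical copies cannot be told apart on these arrays.

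Other mitochondrial genes in pluripotent cells against MEF were read from lists outside the membership rule, beside the 30.1% and 29.9% of all genes. Of 15 regulators of mitochondrial biogenesis and mitochondrial DNA 10 rose (66.7%) and 0 fell, with a median of 0.90. They include the mitochondrial transcription factor Tfam (1.45 ± 0.24), the DNA-binding protein Ssbp1 (1.22) and the ribosomal RNA methyltransferase Tfb1m (1.20). Of 77 genes of the mitochondrial ribosome, which translates the mitochondrially encoded subunits, 45 rose (58.4%) and 1 fell, with a median of 0.53, led by Mrps31 (1.65), Mrpl42 (1.46) and Mrps5 (1.29), while Mrps21 fell by 0.44.

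Assembly factors of the complexes rose in part. Of 17 complex IV assembly factors 8 rose (47.1%) and 1 fell, with Coa7 at 1.64, the mRNA stability factor Lrpprc at 1.31 and the copper chaperone Cox17 at 1.07, and Coa5 at -0.34. Of 12 genes for cytochromes and for assembly of complexes III and V, 5 rose (41.7%) and 1 fell, with the testis cytochrome c gene Cyct at 1.47, cytochrome c1 (Cyc1) at 1.11 and Atpaf1 at 0.92, and Ttc19 at -0.28. Of 7 further complex I assembly genes 4 rose (57.1%) and 0 fell, led by Ecsit (0.95), Nubpl (0.82) and Foxred1 (0.77). Of 12 citric acid cycle genes 3 rose, Suclg1 (0.68), Idh3g (0.66) and Idh3b (0.28), and 0 fell, so the share that rose (25%) lay below the 30.1% of all genes. Of 7 carriers and channels the outer membrane channel Vdac1 alone was called, at 0.41 (14.3% of the list). The mitochondrially encoded ND3 and COX2, the 2 such genes matched, read 12.20 to 12.72 and 12.56 to 12.96 over the 12 arrays, and 0 were called in limma, with 0 under 0.05 before adjustment.

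Under DOX, 12 of the 77 mitochondrial ribosome genes rose (15.6%) and 0 fell, with a median of 0.43. Of the 15 biogenesis regulators 4 rose (26.7%) and 0 fell, with a median of 0.66. All genes gave 5.88% higher and 7.67% lower, with a median of 0.06. Suclg2 (1.04), Cyc1 (0.80) and Twnk, the mitochondrial DNA helicase (0.81), were among those called. On flox/- day 4, the array where respiratory chain genes stood highest, the mitochondrial ribosome list had its highest deviation as well (0.38). The biogenesis regulators did not: their deviation was 0.26 there, below WT iPSC (0.41), flox/- iPSC (0.40), flox/- day 8 (0.32) and -/- ESC (0.28). Within that list Tfam read 8.57 on flox/- day 4 and up to 9.10 elsewhere. Esrra and Ppargc1b, picked from the list after their values were seen, had their highest signal on flox/- day 4. They alone of the 15 regulators did, on an array that was the highest for 11.9% of all genes. Their part in the respiratory chain values of that array was not tested. Esrra, an estrogen-related receptor that acts on mitochondrial genes, read 8.64 against 6.98 to 7.85 on the other 11 arrays, and Ppargc1b, its coactivator, read 7.74 against 5.69 to 6.97.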

How the data were processed

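RNA of 12 samples was extracted with TRIzol, labelled with biotin and hybridised to Affymetrix mouse gene arrays, per the labels' protocols, which name a 3' labelling kit. The values deposited by the authors are on the log2 scale (3.11 to 13.99) and cover 35512 probe sets. How they were summarised and normalized is not given in the sources used here, and 0 columns were left out. Array medians differed by 0.122, more than the limit of 0.1, so the values were quantile normalized.

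Symbols came from the platform annotation, which lists 23410 probe sets. A single symbol was given for 21789 and more for 1621, and 12102 of the 35512 are not listed. Of 19938 genes, 999 had several probe sets and the brightest by mean was used, and 13044 genes above the array median on at least 1 array were kept. All 93 members matched RefSeq genes of GRCm38.p6. Of them, 18 had several probe sets, and 2 of the 26 others (for Cox7a2l and Sdhaf4) had the opposite sign in pluripotent cells against MEF. A further 6 probe sets that name several symbols, among them Cox7c, Ndufb4, Ndufb4b, Ndufs5 and Ndufs5-ps, were left out, and Ndufs5 alone of these has a probe set of its own and is a member.

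Differences were tested with limma 3.58.1 (R 4.3.3, data.table, version 1.17.8) over all kept genes, by moderated statistics with Benjamini-Hochberg adjustment and calls under 0.05. Errors are standard errors of the fit. Cell states were compared with arrays of different genotype or day as replicates, flox/- with WT over 8 arrays with stage as a block, and -/- with WT over 7 arrays. With 1 array per combination their number limits the precision, and the labels do not tie arrays to cultures, so p-values measure the spread between these arrays. The scripts were tested on simulated data. Promoters were searched with Python 3.11.15 and pandas 2.3.3, and plots drawn with matplotlib 3.10.9.

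Genes named by rule are the 10 largest rises and falls among the called members of each state comparison and complex IV isoforms with their counterparts. They also include complex I core and complex II subunits and the 5 largest differences each way by genotype. The 3 largest called each way in the other lists, Mbd3 and marker lists complete them. Further members, such as Ndufb5, Ndufv3, Ndufaf2, Sdhaf3, Uqcrfs1, Uqcrh, Atp5a1 and Atp5o, were named outside these rules as examples of their complex. Esrra, Ppargc1b and the genes compared between WT and the other genotypes were added after their values were seen. The members and lists were chosen with earlier results of these data known. Alternatives were other normalizations, filters, probe set rules and fits, and leaving out arrays.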

Additional observations from a re-analysis of the deposited data

Results flagged for a closer look

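In 92 sets of 4 or 5 arrays of a cell state, 1 array lay far from the others in 9, and chance alone marks about 1 in 20. In pluripotent cells, Cox6a2 read 9.012 in -/- ESC, against 6.705 to 6.934 on the others. The WT ESC array has MEF-like smooth muscle markers and was taken from an older series. It was apart for Cox7a2l (8.91, others 8.321 to 8.393), Ndufs3 (10.36, others 10.02 to 10.07) and Ndufs1 (9.71, others 9.856 to 9.881), and for the complex I median (0.2176, others 0.02981 to 0.05705). Under DOX, Cox7b2 read 5.927 on flox/- day 8, against 4.337 to 4.758. Cox6a2 read 6.375 on WT day 11, against 6.694 to 6.775. On flox/- day 4, Cox8a read 11.99, against 11.80 to 11.85, and the complex III median was 0.4424, against -0.04216 to 0.09665. In 36 comparisons of direction between genotypes, 0 had all arrays of one genotype move one way and all arrays of another the opposite way.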

How the results depend on the processing

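The count of members called in pluripotent cells against MEF, 41, ranged from 21 (without flox/- MEF) to 39 (without -/- ESC) when 1 array was left out. The DOX count against MEF, 4, ranged from 0 to 9 in the same way, and was 8 with no filter on dim genes, 8 with an intensity trend, 18 in 1 fit of all 12 arrays, 0 with genotype as a term and 9 without both reused arrays. The DOX count against pluripotent cells, 0, ranged from 0 to 1. The share of all genes called in each of these settings is not given here. These counts therefore do not show a change particular to the members. The cause was not tested. For the genotype comparisons the count was 0 in all settings run. No result changed sign past the threshold in any alternative run, and the medians of the members and of the steps moved by less than the spread. Of the complex medians by array 59 did so too and 1 moved by more, complex II on flox/- day 8 (-0.23, and -0.18 with the values as deposited). Of the 41 genes called in pluripotent cells, 21 to 40 kept the call in each of 15 other settings, with the fewest without flox/- MEF, and 0 changed sign. Of the 4 called under DOX, 0 to 4 kept it in each of 16 settings. With 2-fold in place of 1.5-fold the single steps held 4 genes on WT day 4 (4.4%, against 12.4% of all genes), 5 on WT day 8 (5.49%, against 25.2%), 5 on WT day 11 (5.49%, against 24.6%), 5 on flox/- day 4 (5.49%, against 28.7%) and 7 on flox/- day 8 (7.69%, against 36.8%). The labels give no replicate numbers, so arrays were paired only by stage, in flox/- against WT, where the count was 0 with and without the stage block. How far the signal of Ndufaf6, Ndufb2, Sdhaf4, Cox7b2 and Cox6a2, near or under the array median on several arrays, lay above background was not measured.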
